A study of Mus musculus with 18 samples.

Results

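The genes described here are 10 members of the smooth muscle and cytoskeletal actin-calponin group: the actins Acta2, Actb and Actg1, the transgelins Tagln and Tagln2, the calponins Cnn1, Cnn2 and Cnn3, the intermediate filament gene Vim and the transcription factor gene Srf. They were chosen by symbol, as the rows of the deposited count table whose mouse Ensembl ID carries one of these names, and all 10 were found among 48795 IDs. The measurements came from C2C12 cells, an established mouse myoblast line, which had been fused into myotubes by 5 days in 2% horse serum. Bulk poly-A RNA was sequenced as 18 libraries in 6 groups of 3. The study asked how ginsenoside Rc, a steroid-like saponin of ginseng, alters the response of myotubes to dexamethasone, a synthetic glucocorticoid used to bring about muscle atrophy in culture.

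All cells were of the same unmodified line, and every group was collected at 36 h. One group (DEX) had vehicle, 0.1% DMSO, for 12 h and then 200 µM dexamethasone for 24 h. Its counterparts DEX + Rc 10 and DEX + Rc 20 had 10 or 20 µM ginsenoside Rc for the first 12 h and the same dexamethasone for 24 h. The labels do not say whether the ginsenoside stayed on during those 24 h. Without dexamethasone there were Rc 10 and Rc 20, which had 10 or 20 µM ginsenoside Rc, and the control group, which had 0.1% DMSO. The labels mention DMSO for DEX and control but not for the groups with ginsenoside. They do not state that replicates were grown as separate cultures. The p-values therefore reflect only how far libraries of the same group differed, possibly for technical reasons. That spread was estimated over all 18 libraries in the 6 groups, not only over those compared.

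Actins polymerise into the filaments that carry contraction and cell shape. Acta2 is the actin of vascular smooth muscle and myofibroblasts and is also made by differentiating myoblasts, while Actb and Actg1 encode the actins of the cytoskeleton of nearly every cell. Calponins and transgelins bind actin filaments through related domains: Cnn1 and Tagln are smooth muscle markers, and Cnn2, Cnn3 and Tagln2 are made more widely. Vimentin, the product of Vim, forms the intermediate filaments of mesenchymal cells and of myoblasts before desmin takes over. Serum response factor, the product of Srf, binds a DNA element called the CArG box in many promoters of this group, and its coactivators, the myocardin-related factors, are held in the cytoplasm by unpolymerised actin.

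Each library held between 32350889 and 45388609 expected counts, and all 10 genes passed the filter on low counts, which kept 15436 genes. Replicate 2 of Rc 20 stood apart, with 2.79% of its counts from mitochondrial genes against 1.26% to 1.91% in the other 17 libraries, and the values of the Rc 20 comparisons that moved most without it are given beside those with it. All 8 myotube markers searched for were detected. Of 6 markers taken as defining smooth muscle, Myh11, the smooth muscle myosin heavy chain, and Myocd, the cardiac and smooth muscle coactivator of serum response factor, had at most 11 and 4 counts in any library. The other 4 were well expressed, with at least 406 counts in Lmod1, 449 in Actg2, 5317 in Smtn and 14352 in Synpo2 in every library, and the list summed to 546 to 626 CPM (counts scaled to library size and TMM factor) in DEX libraries and 685 to 748 CPM in control libraries.

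Levels were compared between genes per length, as TPM, the transcript share left after each count is divided by its gene's union exon length. In control myotubes Acta2 stood at 3346 ± 20.6 TPM, Actb at 2939 ± 38.5, Actg1 at 2329 ± 83.6 and Vim at 1364 ± 23.3 (SD, n = 3 each). Cnn3 followed at 982 ± 38.3 TPM, well above Tagln at 337 ± 8.89, Cnn2 at 305 ± 6.31 and Tagln2 at 241 ± 12.8. Srf was at 99.8 ± 3.87 TPM, and Cnn1 was lowest at 2.66 ± 0.276. Neighbours in this order lay further apart than their SDs. The order depended on the length used. With the mean length of the coding transcripts, Actb came first at 4197 TPM and Actg1 and Acta2 were level at 2765 and 2754 TPM. Lower down, Tagln2 at 302 TPM then stood above Cnn2 at 238 TPM. Skeletal alpha-actin, Acta1, which is not one of the 10, was at 13460 TPM by union exon length.

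The promoters of 5 members are shown because they carry, or lack, the CArG box through which serum response factor acts. The RefSeq windows (GRCm38.p6) run 5′ to 3′ on the gene's strand from 250 bases before to 50 after the annotated start, and 8 of the 10 genes had one. Capitals mark CArG boxes in Cnn2, Actg1 and Srf, and in Acta2 the CArG-like elements, in which 1 base of the A/T core is C or G. The windows are chr19:34255324-34255623 (minus strand) for Acta2, chr9:22099003-22099302 (plus strand) for Cnn1, chr10:79988350-79988649 (plus strand) for Cnn2, chr11:120348446-120348745 (minus strand) for Actg1 and chr17:46556113-46556412 (minus strand) for Srf.
Acta2: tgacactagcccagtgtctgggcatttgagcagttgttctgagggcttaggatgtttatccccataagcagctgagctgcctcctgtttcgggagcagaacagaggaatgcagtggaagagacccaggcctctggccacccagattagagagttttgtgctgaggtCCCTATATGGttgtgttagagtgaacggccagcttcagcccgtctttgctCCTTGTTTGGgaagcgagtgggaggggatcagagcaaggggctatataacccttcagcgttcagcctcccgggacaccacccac
Cnn1: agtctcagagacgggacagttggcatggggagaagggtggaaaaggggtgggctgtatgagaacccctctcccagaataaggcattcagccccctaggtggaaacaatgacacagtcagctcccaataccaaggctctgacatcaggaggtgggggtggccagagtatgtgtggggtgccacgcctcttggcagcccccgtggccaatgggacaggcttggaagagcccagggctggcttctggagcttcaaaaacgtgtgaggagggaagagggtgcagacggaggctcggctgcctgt
Cnn2: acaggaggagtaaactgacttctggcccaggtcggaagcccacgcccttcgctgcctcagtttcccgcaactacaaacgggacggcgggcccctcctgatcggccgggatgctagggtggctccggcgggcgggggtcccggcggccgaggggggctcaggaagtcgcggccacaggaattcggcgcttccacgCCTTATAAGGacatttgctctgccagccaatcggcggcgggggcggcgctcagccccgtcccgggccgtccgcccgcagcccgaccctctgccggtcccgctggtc
Actg1: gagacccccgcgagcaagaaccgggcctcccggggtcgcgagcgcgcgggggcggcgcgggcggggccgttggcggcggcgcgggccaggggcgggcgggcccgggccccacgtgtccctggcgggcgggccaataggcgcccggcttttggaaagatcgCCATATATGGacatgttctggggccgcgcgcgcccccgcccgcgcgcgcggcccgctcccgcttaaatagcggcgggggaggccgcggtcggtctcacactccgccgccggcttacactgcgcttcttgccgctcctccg
Srf: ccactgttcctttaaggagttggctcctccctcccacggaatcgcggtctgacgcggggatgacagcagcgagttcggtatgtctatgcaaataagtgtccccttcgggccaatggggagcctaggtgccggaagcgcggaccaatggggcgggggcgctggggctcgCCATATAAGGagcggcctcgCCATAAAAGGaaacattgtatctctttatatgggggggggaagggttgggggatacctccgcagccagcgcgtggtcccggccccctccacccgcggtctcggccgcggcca

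A CArG box stood 56 to 47 bases upstream of the start of Cnn2 and 90 to 81 bases upstream of Actg1. Srf held a pair, at 82 to 73 and 62 to 53 bases upstream. The CArG-like elements of Acta2 lay 84 to 75 and 34 to 25 bases upstream of the start annotated in RefSeq. In GENCODE M21 the Acta2 gene begins further upstream, at base 34255590, so these distances depend on the annotation used. The windows of Cnn1, Cnn3, Tagln2 and Vim held no match of either kind. Of 32851 mouse promoter windows of the same length, 1.63% held a CArG box and 8.5% a CArG-like element. The core repeat of glucocorticoid response elements, TGTTCT on either strand, was found at 2 places in Acta2 and 1 in Actg1, and in 19.0% of all windows. CATTCC on either strand, the element bound by TEAD factors, was found at 2 places in Tagln2 and 1 in Acta2, and in 14.7% of all windows. No match overlapped another in the windows shown. These are matches of letters in short windows only.

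Dexamethasone lowered 9 of the 10 genes and left only Srf without a call. The falls ran from 11.6% in Cnn3 to 92.3% in Cnn1, and Cnn1, Tagln2 and Tagln fell most. In edgeR's quasi-likelihood test with Benjamini-Hochberg adjustment, 43.8% of all genes passed in either direction and 23.2% passed as lower. Of all 6755 calls 3578 were lower, and without composition scaling 4393 of 6761 were, but the same 9 members fell under both. The median log2 change of the 10 genes was -0.53, against -0.01 over all tested genes. These are bulk libraries, so fewer cells of a type and less RNA per cell cannot be told apart.

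**Figure D1:**
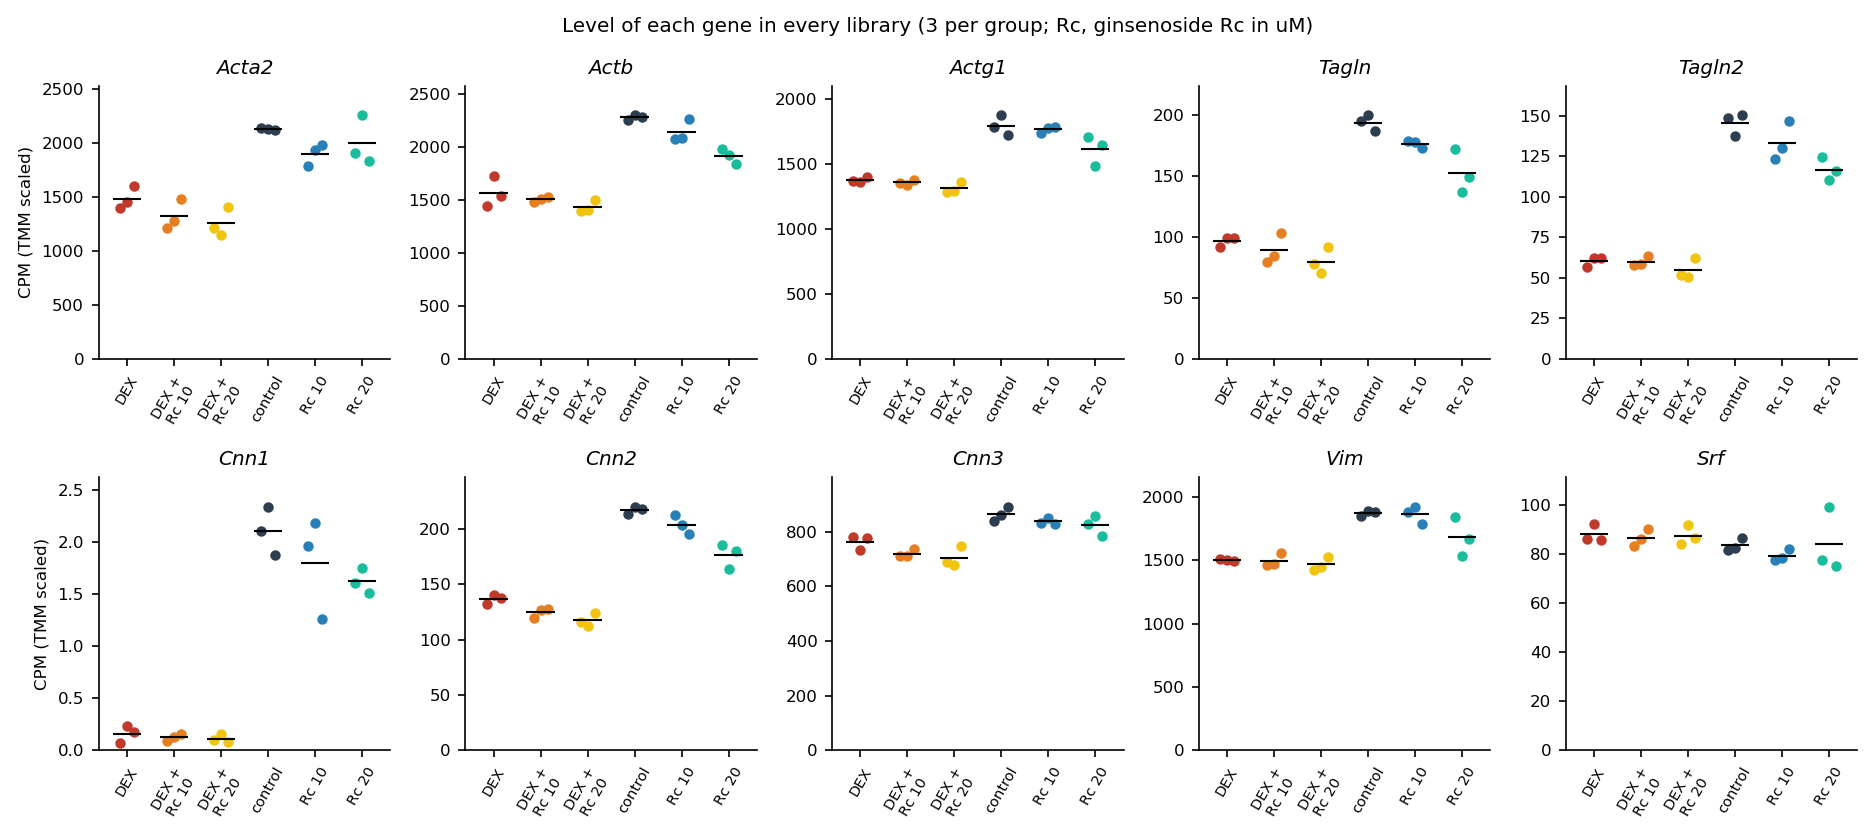
Level of each of the 10 genes in every library, in CPM (counts scaled to library size and TMM factor, linear axes starting at 0), with 3 points per group and a black bar at the mean. All DEX points lie below all control points in 9 panels, and in the Srf panel they overlap.

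Acta2 stood at 1399, 1455 and 1597 CPM in the DEX libraries, against 2136, 2127 and 2122 CPM in control libraries. The control libraries were almost level and every DEX library was lower. The log2 change was -0.52 (standard error 0.09, edgeR adjusted p = 0.00011), so Acta2 fell by 30.3%. Actb, the beta-actin often used as a loading standard, had 1441, 1729 and 1540 CPM in DEX libraries, against 2259, 2301 and 2281 CPM in control libraries. DEX replicate 2 was the highest of its group and still below every control. Its log2 change was -0.54 (standard error 0.06, edgeR adjusted p = 8.6e-07). Actg1, the gamma-actin gene, had 1363, 1360 and 1395 CPM in DEX libraries, against 1784, 1872 and 1723 CPM in control libraries. The groups did not overlap, and the log2 change was -0.39 (standard error 0.05, edgeR adjusted p = 8.9e-06). Actg1 has 9 processed pseudogenes of at least 90% identity over 200 or more bases, which held counts equal to 2.34% of its own, and it shares 337 aligned bases with Actb at 91.1% identity. A small part of its count is therefore uncertain.

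The fall was not shared by every actin, and the makeup of actin RNA differed between the groups. Acta1, the main actin of the skeletal thin filament, rose by 0.19 on the log2 scale (edgeR adjusted p = 0.019). Actc1, the cardiac actin made in young myotubes, fell by 0.38 (adjusted p = 0.0087), and Actg2, the enteric smooth muscle actin, fell by 1.58 (adjusted p = 1e-09). Of these 3 actins 0 were called higher in DEX + Rc 10 against Rc 10, so the rise of Acta1 was not called there. In DEX + Rc 20 against Rc 20, 1 was called higher. By TPM, Acta1 overlapped between the groups, at 13580 to 14830 in DEX libraries and 13070 to 13910 in control libraries. Of the summed TPM of the 6 actins, Acta1 held 64.1% ± 1.86 in DEX libraries and 53.2% ± 0.732 in control libraries (SD, n = 3 each). Acta2 held 9.73% ± 0.299 in DEX libraries and 13.2% ± 0.318 in control libraries. Actb and Actg1 held 8.46% and 7.45% in DEX libraries, against 11.6% and 9.2% in control libraries. The sum itself was 22120 ± 752 TPM in DEX libraries and 25320 ± 488 TPM in control libraries. No test was made on these shares.

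**Figure D2:**
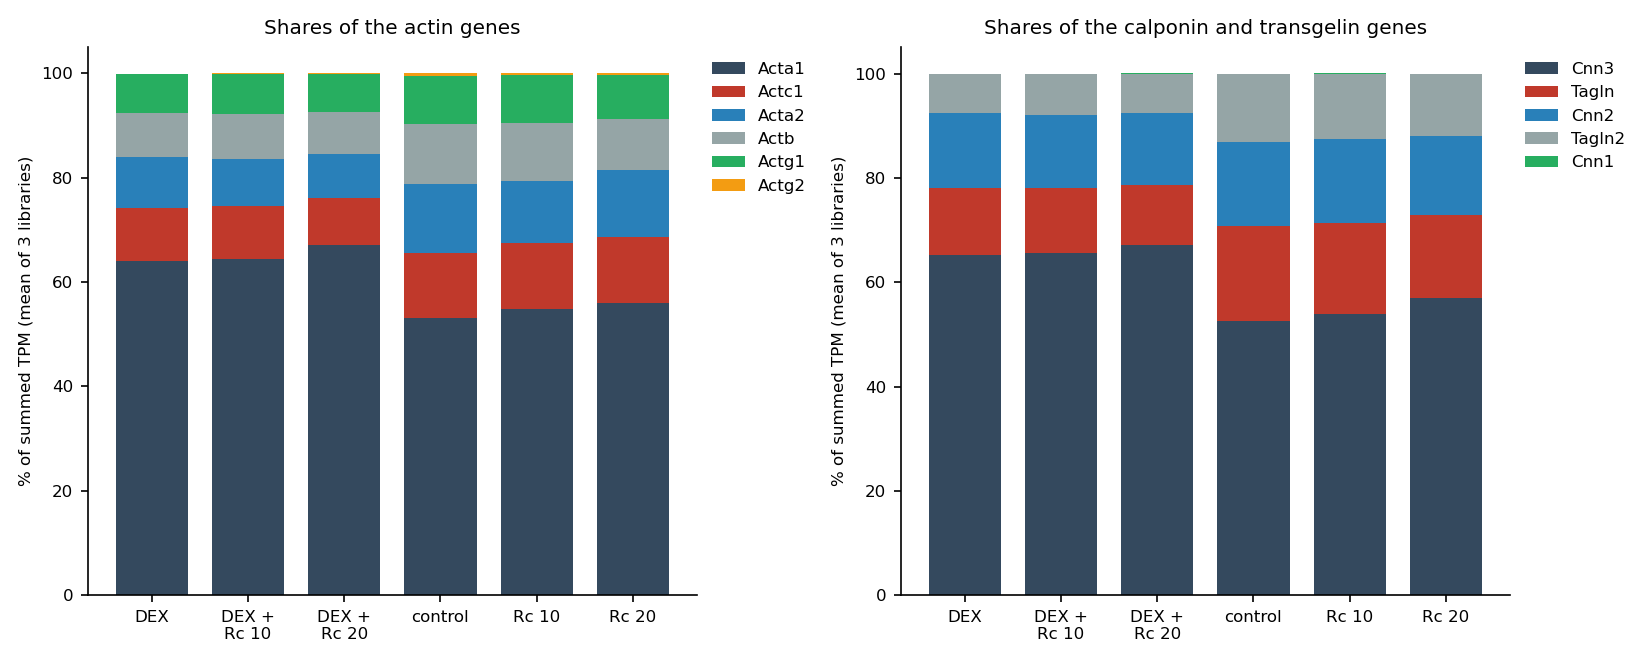
Mean share of each gene in the summed TPM of the 6 actins (left) and of the 5 calponin and transgelin genes (right), in % on the vertical axis, for the 6 groups of 3 libraries. Acta1 holds 64.1% with DEX and 53.2% in control, and Cnn3 holds 65.3% with DEX and 52.6% in control.

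Among the transgelins, Tagln had 92.1, 99.4 and 99.1 CPM in DEX libraries, against 195, 200 and 187 CPM in control libraries. All DEX libraries lay far below all controls. The log2 change was -1.0 (standard error 0.10, edgeR adjusted p = 2e-07), so Tagln fell by 50.1%. Tagln2, the transgelin of non-muscle cells and lymphocytes, had 56.5, 61.9 and 62.4 CPM in DEX libraries, against 148, 137 and 150 CPM in control libraries. Its change was -1.27 (standard error 0.08, edgeR adjusted p = 3.6e-10), with no overlap. Pcsk7, a proprotein convertase gene, overlaps Tagln on the opposite strand and held counts equal to 24.7% of those of Tagln. Its own log2 change with dexamethasone was -0.04 (edgeR adjusted p = 0.64).

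Cnn1 was nearly absent with dexamethasone. It was read with 3, 10 and 7 expected counts in DEX libraries, against 79, 106 and 74 in control libraries, or 0.0725, 0.23 and 0.174 CPM against 2.11, 2.34 and 1.88 CPM. The log2 change was -3.70 (standard error 0.29, edgeR adjusted p = 6e-09). With so few counts its 95% interval, -4.30 to -3.09, was the widest of the 10. Cnn2, the calponin of motile non-muscle cells, had 133, 141 and 137 CPM in DEX libraries, against 213, 220 and 218 CPM in control libraries. Replicates were tight in both groups, and the change was -0.67 (standard error 0.05, edgeR adjusted p = 7.3e-09). Cnn3, the acidic calponin and the most abundant of the family here, had 780, 734 and 776 CPM in DEX libraries, against 839, 860 and 892 CPM in control libraries. The groups did not overlap, and the change was the smallest of the 9 falls at -0.18 (standard error 0.05, edgeR adjusted p = 0.0074). Without control replicate 3 the Cnn3 change was -0.15 and no longer passed (adjusted p = 0.051). Of the summed TPM of the 5 calponin and transgelin genes, Cnn3 held 65.3% ± 1.5 in DEX libraries and 52.6% ± 0.814 in control libraries (SD, n = 3 each). That sum was 1227 ± 7.58 TPM in DEX libraries and 1868 ± 43.7 TPM in control libraries.

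Vim had 1512, 1501 and 1490 CPM in DEX libraries, against 1848, 1891 and 1881 CPM in control libraries. The groups did not overlap, and the log2 change was -0.32 (standard error 0.06, edgeR adjusted p = 0.0002). Srf had 86.0, 92.2 and 85.8 CPM in DEX libraries, against 81.7, 82.6 and 86.4 CPM in control libraries. One control library lay above 2 DEX libraries. The change was 0.07 (95% interval -0.09 to 0.24, edgeR adjusted p = 0.47), so a fall of Srf RNA as large as that of Acta2 or Actb lies outside the interval. In all, 9 of 10 genes were lower in every DEX library than in every control, as were 30.5% of all tested genes.

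The same contrast could be read in libraries that share none with the first, by setting dexamethasone against none at each ginsenoside dose. At 10 µM, DEX + Rc 10 against Rc 10, 9 of 10 genes fell, where 44.2% of all genes passed and 23% were lower. At 20 µM, DEX + Rc 20 against Rc 20, the same 9 genes fell, where 48.9% of all genes passed and 25.4% were lower. Cnn1 had log2 changes of -3.80 at 10 µM and -3.82 at 20 µM, and Tagln2 of -1.15 and -1.10. Those of Tagln were -0.98 and -0.94, those of Cnn2 -0.71 and -0.59, and those of Acta2 -0.52 and -0.67. Actb stood at -0.51 and -0.42, Actg1 at -0.38 and -0.30, Vim at -0.32 and -0.20, and Cnn3 at -0.22 at both doses. Without Rc 20 replicate 2 the 20 µM changes were -0.57 in Acta2, -1.01 in Tagln and -0.26 in Vim. With all libraries, the largest edgeR adjusted p among these 18 calls was 0.0099, for Vim at 20 µM.

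**Figure D3:**
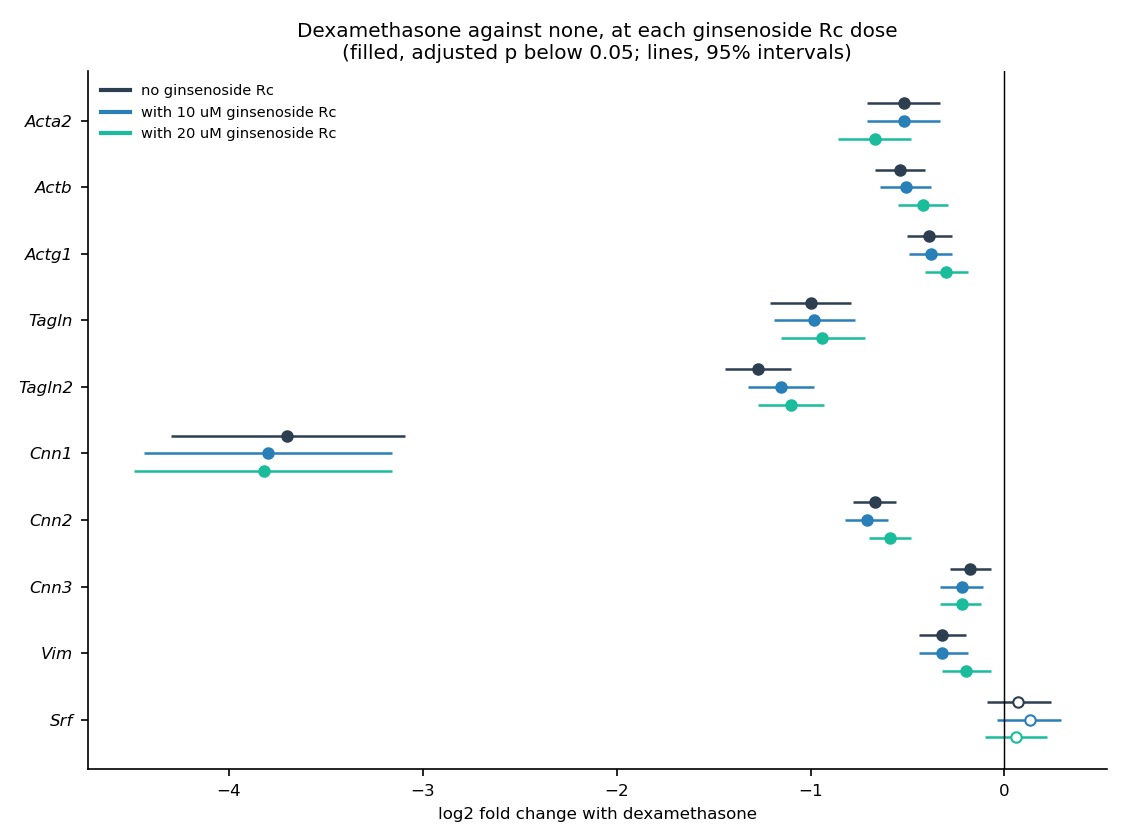
Fitted log2 fold change with dexamethasone for each gene without ginsenoside Rc and at 10 and 20 µM, with 95% intervals as lines; filled points passed at an adjusted p below 0.05. Cnn1 sits near -3.7 to -3.82 at every dose and Srf is the only gene with open points.

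Srf behaved differently from the rest and was sensitive to single libraries. It had 83.3, 86.3 and 90.1 CPM in DEX + Rc 10 libraries, against 77.7, 78.4 and 81.9 CPM in Rc 10 libraries. The groups did not overlap, and the change of 0.13 did not pass (edgeR adjusted p = 0.20). In DEX + Rc 20 libraries it had 84.1, 91.7 and 86.5 CPM, against 77.7, 99.3 and 75.1 CPM in Rc 20 libraries. The highest Srf value of all 18 libraries was that of Rc 20 replicate 2, the library with the high mitochondrial share. Without it the Srf change passed at both doses, at 0.13 (adjusted p = 0.016) for 10 µM and 0.20 (adjusted p = 0.0016) for 20 µM, and did not pass for DEX against control (0.08, adjusted p = 0.15).

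Markers of other cell states moved with dexamethasone, where 3578 of all 15436 tested genes passed as lower and 3177 as higher. Of 8 cycling and undifferentiated myoblast markers, 6 fell and 1 rose, with a median log2 change of -2.24. The cell cycle genes of this list ran from -3.41 in Mki67 to -1.48 in Cdk1, with Top2a at -3.05. Its myoblast genes differed: Pax7 fell by 0.95, Myf5 rose by 1.14, and Myod1 at 0.09 did not pass. The summed level of the list was 297 to 315 CPM in DEX libraries, against 416 to 423 CPM in control libraries. Mki67, a nuclear protein of dividing cells, averaged 4.89 ± 1.69 CPM in DEX libraries and 52.1 ± 2.71 CPM in control libraries (SD, n = 3 each). Of 6 fibroblast markers 5 were tested: 4 fell, among them the collagen gene Col1a1 at 287 ± 41.7 CPM in DEX libraries and 1300 ± 85.4 CPM in control libraries. The receptor gene Pdgfra rose. The summed level of the fibroblast list was 2100 to 2560 CPM in DEX libraries, against 4960 to 5460 CPM in control libraries. Collagens are also made by myoblasts. Of 8 myotube markers 6 rose and 1 fell. Myh8, a perinatal myosin heavy chain, rose by 1.44 to 1410 ± 79.7 CPM in DEX libraries, against 521 ± 8.41 CPM in control libraries. Myh3, the embryonic myosin heavy chain, fell to 2500 ± 228 CPM in DEX libraries, against 4670 ± 61.7 CPM in control libraries (SD, n = 3 each). The sum of the 8 was 11000 to 11900 CPM in DEX libraries, against 11600 to 11700 CPM in control libraries. Of 4 adipocyte markers only Fabp4, a fatty acid binding protein gene, was tested, and it rose (edgeR adjusted p = 6.1e-12). That list summed to 3.18 to 4.14 CPM in DEX libraries, against 0 to 0.0254 CPM in control libraries, and Adipoq, Plin1 and Lep had at most 2 counts in any library. Pericyte and endothelial markers summed to at most 0.631 CPM in any library. The part of these cell states in the falls of the actin-calponin genes was not tested.

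Other genes of the pathway did not move as a block. Beside the counts given here, 3578 of all 15436 tested genes (23.2%) passed as lower and 3177 as higher. Of 15 genes known as targets of serum response factor and its myocardin-related coactivators, 9 fell and 3 rose, with a median log2 change of -0.37, against -0.01 over all genes. The extremes ran opposite ways: Thbs1, the matrix protein thrombospondin 1, fell by 1.98 to 420 ± 12.1 CPM in DEX libraries, against 1660 ± 32.5 CPM in control libraries, and Ccn2, connective tissue growth factor, rose by 2.30 to 382 ± 20 CPM in DEX libraries, against 77.4 ± 0.617 CPM in control libraries (SD, n = 3 each). Of 9 immediate early targets, 6 fell and 2 rose (median -0.41), with log2 changes of -1.31 and -1.24 in Egr2 and Egr3, which encode zinc finger factors. Of 17 tested smooth muscle contractile genes, 9 fell and 5 rose (median -0.21). Actg2 fell by 1.58, while the integrin gene Itga8 rose by 2.22 at a low level of 5.38 ± 1.08 CPM in DEX libraries, against 1.16 ± 0.182 CPM in control libraries. Among 4 tested smooth muscle defining markers, 2 fell and 1, the leiomodin gene Lmod1, rose to 24.2 ± 0.356 CPM in DEX libraries, against 11.4 ± 0.51 CPM in control libraries. All 4 are also among the 17 contractile genes, so each is counted in both lists, and Actg2 also among the actins above. The target and contractile lists share genes too, and the shared genes fell. A gene is also shared by the targets and the partners below, and by the contractile and the intermediate filament genes below. Smooth muscle genes thus moved both ways.

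Of 7 tested partners of serum response factor, 2 fell and 1 rose (median -0.13), where 23.2% of all genes passed as lower. Elk3, a ternary complex factor, fell by 0.86, and Scai, a repressor of the myocardin-related factors, fell by 0.33. The coactivator genes Mrtfa and Mrtfb were at -0.13 (edgeR adjusted p = 0.26) and 0.04 (adjusted p = 0.77) and did not pass. Of 24 actin filament turnover genes, 11 fell and 6 rose (median -0.18). Those with the largest changes were the formin Diaph3, at -1.64, and the coactosin-like Cotl1, at -1.63. Of 7 non-muscle myosin and tropomyosin genes, 5 fell and 1 rose (median -0.26), with Tpm4, a cytoskeletal tropomyosin, at -1.19 and the light chain Myl6 at -0.67. Of 7 tested intermediate filament genes other than Vim, 4 rose and 3 fell (median 0.23). Lmnb1, lamin B1, fell by 1.55 and Synm, synemin of the muscle filament network, rose by 0.99.

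**Figure D4:**
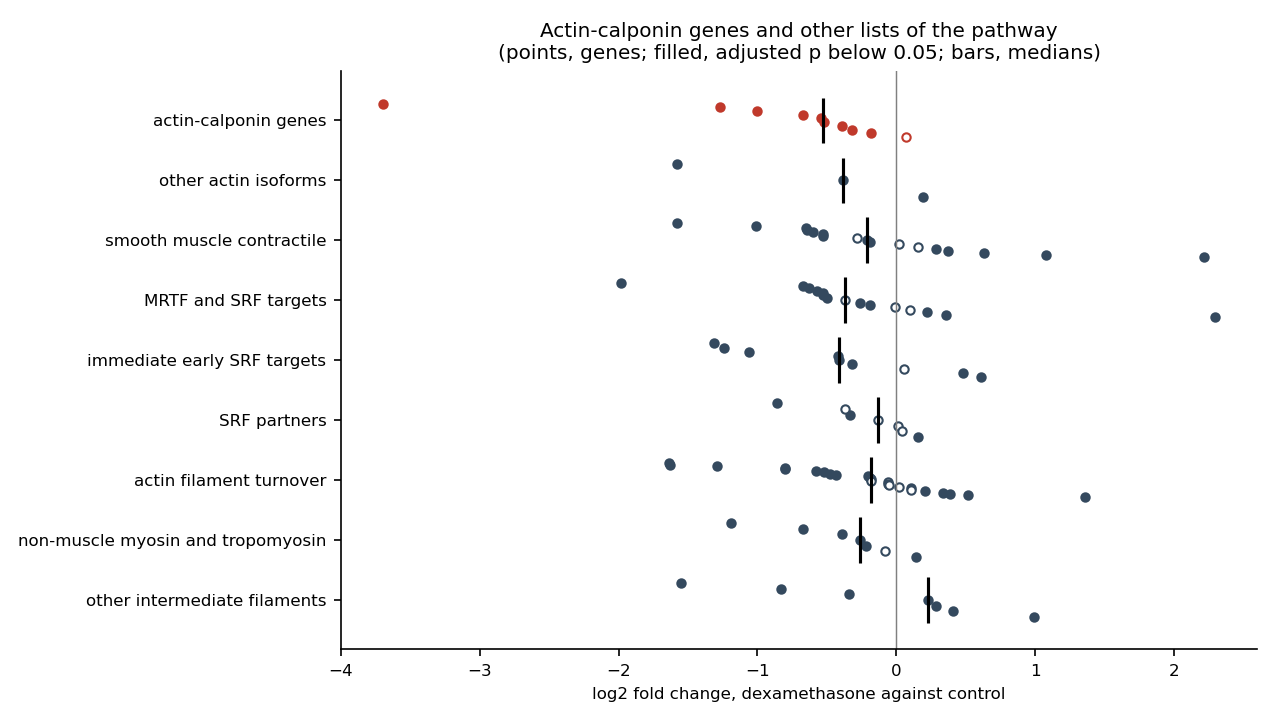
Fitted log2 fold change, DEX against control, of the 10 genes (red) and of the tested genes of the other lists described, one point per gene, filled where the adjusted p was below 0.05, with the list's median as a bar. Medians run from -0.53 for the actin-calponin genes to 0.23 for the other intermediate filaments.

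Tested genes with a CArG box in the short promoter window fell and rose in shares close to those of genes without one. Of 173 tested genes with one, 25.4% fell and 23.1% rose with dexamethasone (median log2 change -0.01). Of 10858 tested genes whose windows held none, 24.3% fell and 21.9% rose (median 0.00). Among the 8 members with a window, Srf with its pair of boxes did not pass, and Cnn2 and Actg1 with 1 box had log2 changes of -0.67 and -0.39. Cnn1, Tagln2, Vim and Cnn3 with none had -3.70, -1.27, -0.32 and -0.18. Acta2, whose CArG-like elements were not counted as boxes, had -0.52. Tagln and Actb had no window, and the part of serum response factor in these changes was not tested.

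Ginsenoside Rc alone had small effects on these genes. At 20 µM only Cnn2 passed, where 0.104% of all genes did, and at 10 µM none of the 10 passed. Cnn2 had 185, 164 and 180 CPM in Rc 20 libraries, against 213, 220 and 218 CPM in control libraries. Every Rc 20 library lay below every control. Its log2 change was -0.30 (standard error 0.05, edgeR adjusted p = 0.034), so Cnn2 fell by 18.8%. This call was not firm. It was lost when any 1 control library was left out (adjusted p = 0.12, 0.22 and 0.16 without replicates 1, 2 and 3), without Rc 20 replicate 3 (0.093), with the replicate number as a block (0.066) and when only these 2 groups were fitted (0.76). Without Rc 20 replicate 2 the change was -0.25 and passed (adjusted p = 0.012).

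Other members were also lower at 20 µM without passing. Tagln had 173, 137 and 149 CPM in Rc 20 libraries, against 195, 200 and 187 CPM in control libraries. The change of -0.34 did not pass (edgeR adjusted p = 0.24). Tagln2 had 124, 110 and 116 CPM in Rc 20 libraries, against 148, 137 and 150 CPM in control libraries. Its change of -0.31 did not pass (adjusted p = 0.14). Actb had 1981, 1929 and 1840 CPM in Rc 20 libraries, against 2259, 2301 and 2281 CPM in control libraries, a change of -0.25 that did not pass (adjusted p = 0.14). In all 3 genes the groups did not overlap. The log2 difference was -0.38 in Cnn1 (95% interval -0.80 to 0.05), -0.16 in Vim, -0.15 in Actg1, -0.09 in Acta2, -0.07 in Cnn3 and 0.01 in Srf. At an unadjusted p below 0.05 there were 6 of the 10 genes, where 9.29% of all genes passed. In 7 of 10 genes every Rc 20 library was below every control, as in 7.04% of all genes. Without Rc 20 replicate 2 the log2 difference was -0.27 in Tagln, -0.19 in Acta2, -0.13 in Srf, -0.10 in Vim and -0.10 in Actg1. Cnn2 was still the only gene to pass. The 2 remaining libraries lay below every control in all 10 genes, as in 14.2% of all genes, and 8 of the 10 were at an unadjusted p below 0.05, where 7.8% of all genes passed.

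At 10 µM the changes ran from -0.23 in Cnn1 to -0.01 in Vim, and 0 of 10 genes passed at an adjusted or an unadjusted p below 0.05 in edgeR, or at an adjusted p below 0.05 in DESeq2. Over all genes 0.00648% passed after adjustment and 2.54% before. Acta2 had 1787, 1933 and 1979 CPM in Rc 10 libraries, against 2136, 2127 and 2122 CPM in control libraries. That is a change of -0.16 (edgeR adjusted p = 1.0), without overlap. Tagln and Cnn2 also did not overlap, so 3 of 10 genes were lower in every library, as were 6.39% of all genes. The 95% intervals at 10 µM reached no lower than -0.35 for any gene other than Cnn1.

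In the presence of dexamethasone, ginsenoside Rc raised none of the 10 genes. All 10 log2 changes were at or below -0.01 at both doses, where 49.8% of all genes were below 0 at 10 µM and 49.6% at 20 µM. Several were near 0, as at 10 µM in Tagln2 and Vim, both at -0.01 (standard errors 0.08 and 0.06). Under single alternatives direction turned in Tagln2, Cnn1, Srf, Actb and Vim at 10 µM and in Srf at 20 µM. In edgeR 0 of 10 passed. At 20 µM, DEX + Rc 20 against DEX, 0.369% of all genes passed, and 5 of 10 members passed at an unadjusted p below 0.05, where 8.75% of all genes did. Cnn2 had 116, 113 and 124 CPM in DEX + Rc 20 libraries, against 133, 141 and 137 CPM in DEX libraries. The groups did not overlap, and the change of -0.22 (standard error 0.05) missed the threshold (edgeR adjusted p = 0.081). It passed in DESeq2 (adjusted p = 0.0051), without DEX + Rc 20 replicate 3 (0.032) and without Rc 20 replicate 2 (0.0063), which enters only the shared estimate of the spread.

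Tagln had 77.5, 70.4 and 91.8 CPM in DEX + Rc 20 libraries, against 92.1, 99.4 and 99.1 CPM in DEX libraries. Here too the groups did not overlap, by a narrow margin, and the change of -0.28 did not pass (edgeR adjusted p = 0.33). Cnn2 and Tagln were the 2 of 10 genes without overlap, as were 7.68% of all genes on the lower side. Acta2 had 1212, 1149 and 1404 CPM in DEX + Rc 20 libraries, against 1399, 1455 and 1597 CPM in DEX libraries. The groups overlapped by 1 library, and its change was -0.24 (adjusted p = 0.36). Changes of the others were -0.50 in Cnn1, -0.14 in Tagln2, -0.13 in Actb, -0.11 in Cnn3, -0.07 in Actg1, -0.03 in Vim and -0.01 in Srf. For 9 of the 10 genes the upper end of the 95% interval was at most 0.15, so a rise larger than that lies outside it; for Cnn1, with few counts, the upper end was 0.49.

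At 10 µM, DEX + Rc 10 against DEX, 0.0259% of all genes passed. Among the 10 genes, 1 passed at an unadjusted p below 0.05, as did 3.85% of all genes, and DESeq2 called 0 of 10. Cnn2 had 119, 127 and 128 CPM in DEX + Rc 10 libraries, against 133, 141 and 137 CPM in DEX libraries, a change of -0.13 (edgeR adjusted p = 1.0) without overlap. It was the only 1 of the 10 without overlap, as were 5.58% of all genes on the lower side. The other changes ran from -0.33 in Cnn1 to -0.01 in Tagln2 and Vim.

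**Figure D5:**
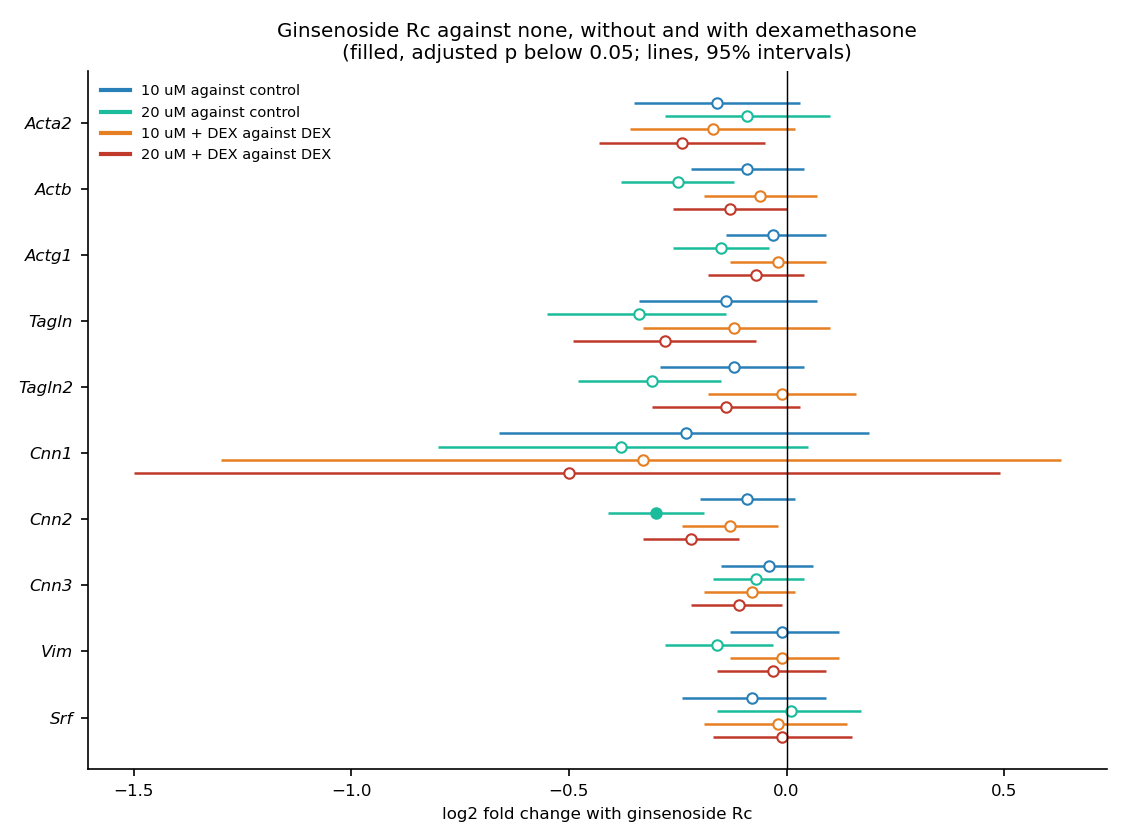
Fitted log2 fold change with ginsenoside Rc for each gene at 10 and 20 µM, without dexamethasone (against control) and with it (against DEX), with 95% intervals as lines; filled points passed at an adjusted p below 0.05. The only filled point is Cnn2 at 20 µM without dexamethasone, at -0.30.

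Of the wider lists, Actg2 and Ccn1 passed among the smooth muscle and target genes in DEX + Rc 20 against DEX. Actg2 averaged 11.4 ± 1.42 CPM in DEX + Rc 20 libraries and 16.5 ± 1.35 CPM in DEX libraries (SD, n = 3 each), a log2 fall of 0.54 (edgeR adjusted p = 0.04). Ccn1, a matricellular protein gene, averaged 138 ± 16.1 CPM in DEX + Rc 20 libraries and 201 ± 19.8 CPM in DEX libraries, also a fall of 0.54 (adjusted p = 0.017). Among the myotube markers Myh8, the perinatal myosin heavy chain, rose with ginsenoside at 10 µM (by 0.40) and at 20 µM (by 0.51) without dexamethasone and at 20 µM with it (by 0.33). Actn2, the sarcomeric alpha-actinin, rose by 0.25 at 20 µM with dexamethasone. No other listed gene passed in a ginsenoside comparison with control or DEX.

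The means of most members stepped down with dose. Without dexamethasone 8 of 10 genes had a lower mean at 10 µM than in control and a lower one again at 20 µM, as did 19.7% of all genes, and the exceptions were Acta2 and Srf. With dexamethasone 9 of 10 did, as did 22.7% of all genes, and the exception was Srf. The 8 genes did so in both series, as did 6.25% of all genes. Both exceptions without dexamethasone rested on Rc 20 replicate 2. Acta2 averaged 1999 CPM in Rc 20 libraries with that library and 1871 CPM without it, against 1900 CPM in Rc 10 libraries. Srf averaged 84.0 CPM in Rc 20 libraries with it and 76.4 CPM without it, against 79.3 CPM in Rc 10 libraries. Without it all 10 genes stepped down without dexamethasone, as did 22% of all genes, and 9 did so in both series, as did 7.31% of all genes. In Cnn2 the means were 217 ± 3.49 CPM in control, 204 ± 8.69 at 10 µM and 177 ± 11.1 at 20 µM (SD, n = 3 each), and with dexamethasone 137 ± 4.02 with no ginsenoside, 125 ± 4.84 at 10 µM and 118 ± 5.69 at 20 µM. In Tagln they were 194 ± 6.49, 177 ± 3.20 and 153 ± 18.3 CPM at 0, 10 and 20 µM, and with dexamethasone 96.9 ± 4.13, 89.4 ± 12.7 and 79.9 ± 10.9 CPM. Without Rc 20 replicate 2 the Rc 20 means were 183 CPM in Cnn2 and 161 CPM in Tagln. Many of these steps were smaller than the SDs. A direct test of Rc 20 against Rc 10 called 0 of 10 genes in edgeR, with 6 at an unadjusted p below 0.05, where 8.97% of all genes passed, and 0 in DESeq2. Without Rc 20 replicate 2 it called 0, with 2 at an unadjusted p below 0.05, where 4.38% of all genes passed. Cnn2 stood at -0.21 (edgeR adjusted p = 0.55). DEX + Rc 20 against DEX + Rc 10 called 0 of 10, with 0 at an unadjusted p below 0.05, where 2.83% of all genes passed, and 0 in DESeq2. Without Rc 20 replicate 2 it called 0, with 1 at an unadjusted p below 0.05, where 4.73% of all genes passed. With all libraries, 0 of all genes passed after adjustment in either test.

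Whether ginsenoside Rc altered the response to dexamethasone was tested as an interaction, which compares the dexamethasone change with ginsenoside with that without it. At 10 µM the differences in log2 change ran from -0.10 in Cnn1, where single alternatives gave -0.44 to 0.28, to 0.12 in Tagln2. At 20 µM they ran from -0.15 in Acta2 to 0.17 in Tagln2, and Cnn2 was at 0.08 (95% interval -0.08 to 0.24, edgeR adjusted p = 0.89). Without Rc 20 replicate 2 the 20 µM differences were -0.06 in Acta2, 0.13 in Tagln2, 0.03 in Cnn2 and 0.12 in Srf, which had -0.02 with it. Tagln was at -0.01 without that library and 0.07 with it. Vim was at 0.06 without it and 0.12 with it, and Actg1 at 0.03 and 0.09. No gene of the 10 passed at an adjusted or an unadjusted p below 0.05 at either dose, and 0 of all genes passed in edgeR. Before adjustment 2.12% of all genes passed at 10 µM and 5.29% at 20 µM. DESeq2 called 0 of the 10.

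For each member the genes with the most similar profile were found by correlation of log2 CPM over the 18 libraries. Because the libraries split by dexamethasone, the Pearson r is given within the 9 libraries with it and the 9 without. Tagln and Actg2 ran together at 0.94 with and 0.98 without dexamethasone, and Cnn2 and the laminin gene Lamb3 at 0.92 and 0.98. Acta2 was closest to Ecm1 at 0.96 and 0.86, followed by Pdlim7, a PDZ and LIM adaptor of actin filaments, at 0.99 and 0.85. Tagln2 was closest to Tpm4 at 0.93 and 0.81, Actg1 to the capping protein gene Capg at 0.93 and 0.95, and Actb to Chst3, a sulfotransferase gene, at 0.88 and 0.85. Cnn3 was closest to the semaphorin gene Sema3f at 0.90 and 0.84, and Vim to P4ha2, a collagen prolyl hydroxylase gene, at 0.77 and 0.96. For Cnn1, whose counts with dexamethasone were few, Col1a1 gave 0.75 and 0.33. Srf was closest to Ttyh3, a chloride channel gene, at 0.53 and 0.95. Points in each set of 9 share 3 groups, and Rc 20 replicate 2 is among those without dexamethasone. Without it, over 8 libraries, the largest shifts among these pairs were to 0.92 for Tagln2 and Tpm4, 0.76 for Acta2 and Pdlim7 and 0.81 for Srf and Ttyh3.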

How the data were processed

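Poly-A RNA of C2C12 myotubes was sequenced as directional libraries with 100 bp paired reads on an MGI instrument, per the labels' protocols. Per the submitters' processing notes, the build was GRCm38 (mm10), the aligner STAR 2.7.3a, the quantifier RSEM 1.3.3, the trimmer Trim Galore 0.6.5 and the quality check FastQC 0.11.9. Annotation release and strand setting: not given in the sources used here. The authors deposited 1 table of expected counts, RSEM's estimates of fragments per gene, in which 9.27% of values were not whole. Each column was matched to its sample by the bracketed number in the sample title. Symbols came from GENCODE M21, which named 48435 of 48795 IDs.

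Counts were rounded to whole numbers, filtered with filterByExpr (15436 genes kept), scaled by TMM and fitted in 1 quasi-likelihood model of all 18 libraries with edgeR 4.0.16, with Benjamini-Hochberg adjustment at 0.05 over all genes in each of 11 comparisons. Standard errors were taken as log2 change over root F. TPM used union exon lengths. Totals were 32350889 to 45388609 counts per library. No 2 replicates agreed within sampling noise (chi-square per degree of freedom 4.93 to 82.9), so spread between replicates rather than depth set the precision for all but the lowest counts. Named genes were all 10 members, any listed gene that passed with ginsenoside, and each member's closest profiles. From each other list the 2 largest changes with dexamethasone past the threshold at an average log2 CPM of at least 1 were named. Mrtfa, Mrtfb, Acta1, Cdk1, Pax7, Myf5, Myod1 and the printed promoters of Cnn2 and Actg1 were added after their values were seen. Fabp4 was named then. The dose order, the CArG comparison and the dose order and overlap without Rc 20 replicate 2 were made then too. A further list of genes is not reported here. The members, lists and tests were chosen with earlier results of these data known. Similar transcripts were sought with blastn 2.17.0. As alternatives, DESeq2 1.42.0, a replicate block, a model of only the groups compared, omission of each library, scaling by median ratios or by totals alone, and no filter were run.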

Additional observations from a re-analysis of the deposited data

How the results depend on the processing

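Of 950 recalculated changes of single genes in the 7 comparisons of treatment with none, and of Cnn2 in the others, 914 kept their direction and their side of the threshold, 10 lost and 8 gained a call, and 18 turned direction, all in changes that had not passed. Where a cause is not named below, it was not tested. The number of members that passed in Rc 20 against control was 1; it was 0 with the replicate block, 0 with only the groups compared, 3 in DESeq2 (Cnn2, Tagln2 at 0.037 and Actb at 0.013) and 0 to 1 without 1 library. In DEX + Rc 20 against DEX it was 0, then 1 in DESeq2 and 0 to 1 without 1 library. The replicate numbers did not pair the libraries (correlation of same-numbered deviations -0.31 to 0.30), and the replicate block changed no other call of a member. In DEX + Rc 20 against Rc 20, with only the groups compared, Cnn3 (adjusted p = 0.054) and Vim (0.13) no longer passed, as did Vim without Rc 20 replicate 1 (-0.13, 0.068). Srf passed in DEX + Rc 10 against Rc 10 with only the groups compared (0.12, 0.019). Across single-library omissions members called numbered 8 to 9 in DEX against control, 9 to 10 in DEX + Rc 10 against Rc 10 and 8 to 10 in DEX + Rc 20 against Rc 20.

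In the comparisons of treatment with none, direction turned in the following log2 changes. Srf in Rc 20 against control was -0.02 without composition scaling (0.01 with it) and -0.13 to 0.08 without 1 library. Without 1 library, Srf ran from -0.05 to 0.01 in DEX + Rc 10 against DEX, -0.04 to 0.03 in DEX + Rc 20 against DEX and -0.02 to 0.20 in DEX + Rc 20 against Rc 20. In DEX + Rc 10 against DEX, Actb ran from -0.12 to 0.02, Tagln2 from -0.05 to 0.02, Vim from -0.03 to 0.01 and Cnn1 from -0.67 to 0.04. In Rc 10 against control, Actg1 ran from -0.05 to 0.01 and Vim from -0.03 to 0.02. In the interaction at 10 µM direction turned in Cnn1 (-0.44 to 0.28), Tagln (-0.10 to 0.10), Actg1 (-0.03 to 0.03) and Actb (-0.03 to 0.10), and at 20 µM in Cnn1 (-0.47 to 0.25), Tagln (-0.04 to 0.16) and Srf (-0.09 to 0.12). In Rc 20 against Rc 10 it turned in Acta2 (-0.02 to 0.13), Cnn1 (-0.35 to 0.03), Cnn3 (-0.06 to 0.01) and Srf (-0.06 to 0.16), and in DEX + Rc 20 against DEX + Rc 10 in Acta2 (-0.16 to 0.01), Cnn1 (-0.52 to 0.04) and Srf (-0.02 to 0.04). None of these had passed. Cnn1 had no value in either ginsenoside comparison with DEX or between the doses with dexamethasone when only the groups compared were fitted, since it failed the filter.

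Counts over all genes depended on the tool where they were small. In Rc 20 against control they were 16, then 28 with no filter, 0 with only the groups compared, 101 in DESeq2, 44 without Rc 20 replicate 2 and 5 to 44 without 1 library. In DEX + Rc 20 against DEX they were 57, then 95, 251 in DESeq2 and 341 without Rc 20 replicate 2 (6 to 341 without 1 library). In Rc 10 against control they were 1, then 2 with no filter, 8 with only the groups compared, 5 in DESeq2 and 0 to 3 without 1 library. In DEX + Rc 10 against DEX they were 4, then 1 with the replicate block, 1 with only the groups compared, 16 in DESeq2 and 0 to 15 without 1 library. The interaction at 20 µM gave 0, then 1 with no filter, 1 in DESeq2 and 2 without Rc 20 replicate 2, and Rc 20 against Rc 10 gave 0, then 1, 3 in DESeq2 and 1. Without composition scaling 4393 of 6761 calls in DEX against control were lower (3578 of 6755 with it), and 4374 of 6823 in DEX + Rc 10 against Rc 10 (3556 of 6820), and 4 of 4 in DEX + Rc 10 against DEX (3 of 4). That setting moved the median of all genes by at most 0.07. Depth limited Cnn1 alone of the 10, with 3 to 10 counts per DEX library.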
